A study of Mus musculus with 8 samples.

Results

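The hypoxia-inducible factor (HIF) pathway and its target genes, 40 genes in all, were examined in RNA sequencing of the mouse corpus callosum after chronic cerebral hypoperfusion, to see whether reduced blood flow left a transcript pattern of low oxygen. The members were chosen by gene symbol as HIF subunits, oxygen sensors, and genes that HIF is known to control. All 40 were among the 25239 symbols of the deposited table, and all 40 passed the limit for testing, a mean of 0.1 CPM over the 8 libraries (CPM, read counts scaled to a common library size), as did 18123 genes in all. In bilateral common carotid artery stenosis (BCAS), both arteries are narrowed by a coil, and the sham operation exposes the arteries without a coil. The adult male mice were C57BL/6, either wild type (WT) or with a germline loss of *Trpa1* in all cells (TRPA1-KO), which encodes a cation channel that senses oxidants. Each genotype gave 1 sham library on day 14 and 1 BCAS library on each of postoperative days 7, 10, and 14. The 3 days served as the replicates of their genotype, so the spread between them holds differences between days and between mice. Since the sham operation was sampled on day 14 only, operation and time cannot be told apart for the earlier days.

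HIF is a pair of an oxygen-regulated alpha subunit (HIF-1α, HIF-2α, or HIF-3α) and a stable beta subunit. When oxygen is plentiful, prolyl hydroxylases mark the alpha subunit, the von Hippel-Lindau protein binds the mark, and the protein is degraded. When oxygen is short, the alpha subunit is kept, enters the nucleus, and binds a short DNA core (A or G followed by CGTG) near genes for glucose uptake, glycolysis, blood vessel growth, acid export, and mitophagy. The main control acts on the protein, so the transcript of a subunit does not measure its activity, whereas the transcripts of the targets are its output. In white matter, oligodendrocytes and their precursors are sensitive to low oxygen, and astrocytes and endothelial cells are sources of angiogenic signals.

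The libraries held 7896071 to 12952093 reads on genes, and a floor of 3 reads corresponded to 0.235 to 0.378 CPM. Reads of *Trpa1* went against the genotype labels, with 0 or 1 read in each of the 4 libraries labelled WT and 3 to 11 reads in each of the 4 labelled TRPA1-KO, so libraries are named by label and every direction between genotypes is one between labels. Oligodendrocyte markers were abundant in every library, as the labelled tissue implies. Their sum was 15827 and 17362 CPM in the sham libraries and 12932 to 14620 CPM in the 6 BCAS libraries, and all 8 markers were lower after BCAS, 3 of them with a limma p under 0.05. Markers of other tissue were present too. The 8 neuron markers summed to 7931 to 9845 CPM in the 8 libraries, and the 6 striatal neuron markers were all lower after BCAS with a limma p under 0.05 (1014 and 1376 CPM after sham, 525 to 962 CPM after BCAS). The 5 blood genes ranged from 1.11 to 202 CPM. 1 library stood apart: on day 7 after BCAS with the label WT, the 7 microglia markers summed to 893 CPM, against 308 to 538 CPM elsewhere. In bulk tissue, fewer cells of a type and less RNA per cell cannot be told apart.

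To show the DNA core at genes that behaved differently here, 4 promoters are printed. *Pdk1* was higher in every BCAS library than in both sham libraries, *Plin2* was high in 1 library, *Ldha* is a glycolytic target whose level stayed flat, and *Car12* was lower in every BCAS library. Each is the reference sequence of RefSeq GRCm38.p6, 5′ to 3′ on the gene's strand, from 250 bases before to 50 bases after an annotated start, a window of 300 bases. Capitals mark ACGTG or GCGTG on either strand, and where CACGTG occurs, it counts as 2 overlapping matches.
Pdk1, chr2:71872974-71873273, plus strand: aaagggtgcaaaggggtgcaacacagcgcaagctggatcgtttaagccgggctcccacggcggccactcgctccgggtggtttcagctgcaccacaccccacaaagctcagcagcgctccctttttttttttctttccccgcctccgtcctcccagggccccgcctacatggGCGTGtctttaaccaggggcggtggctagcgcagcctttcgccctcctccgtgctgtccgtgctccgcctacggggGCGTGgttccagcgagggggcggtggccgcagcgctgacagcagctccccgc
Plin2, chr4:86670010-86670309, minus strand: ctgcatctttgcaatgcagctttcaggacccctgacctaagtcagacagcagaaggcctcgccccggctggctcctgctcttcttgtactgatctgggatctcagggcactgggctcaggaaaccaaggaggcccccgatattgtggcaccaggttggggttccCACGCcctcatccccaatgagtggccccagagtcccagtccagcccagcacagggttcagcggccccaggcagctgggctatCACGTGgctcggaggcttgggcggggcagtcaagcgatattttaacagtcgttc
Ldha, chr7:46845554-46845853, plus strand: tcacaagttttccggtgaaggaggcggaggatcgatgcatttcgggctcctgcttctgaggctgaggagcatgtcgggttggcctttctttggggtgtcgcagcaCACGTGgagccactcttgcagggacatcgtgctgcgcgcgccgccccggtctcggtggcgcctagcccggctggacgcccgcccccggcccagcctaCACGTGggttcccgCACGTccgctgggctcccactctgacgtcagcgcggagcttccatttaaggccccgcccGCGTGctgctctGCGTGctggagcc
Car12, chr9:66713436-66713735, plus strand: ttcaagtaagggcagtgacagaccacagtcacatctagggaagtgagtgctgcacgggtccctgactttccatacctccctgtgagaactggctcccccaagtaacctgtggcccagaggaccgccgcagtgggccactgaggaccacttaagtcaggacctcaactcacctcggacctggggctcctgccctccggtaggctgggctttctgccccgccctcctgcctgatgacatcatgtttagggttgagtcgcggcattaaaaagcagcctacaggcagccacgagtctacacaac
The core occurred 2 times in the printed *Pdk1* window, 3 times in that of *Plin2*, 7 times in that of *Ldha*, and 0 times in that of *Car12*. *Pdk1* and *Ldha* each have another annotated start whose window is not printed, and there the core occurred 0 times for *Pdk1* and 2 times for *Ldha*. Of the 40 members, 35 had at least 1 window in the reference table, and 31 of these 35 (88.6%) held the core in at least 1 of their windows, compared with 8564 of 13759 tested genes with a window (62.2%). Counted by window, the core was present in 38 of 49 windows of members (77.6%) and in 14380 of 32851 windows of the whole table (43.8%). The windows of the whole table were not limited to the genes tested, and no windows were matched for their content of C and G.

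The members did not shift together after BCAS. On the log2(CPM + 1) scale, 20 of the 40 were higher and 20 were lower in the 6 BCAS libraries than in the 2 sham libraries, with a median difference of -0.0021, beside -0.0013 over all 18123 genes tested. 4 members had a limma p under 0.05 (two-sided), 1 higher (*Pdk1*) and 3 lower (*Ndrg1*, *Car12*, and *Edn1*). Over all genes, 3.67% had such a p, 1.35% higher and 2.32% lower. No member had an adjusted p under 0.05 (Benjamini-Hochberg over all genes tested, 0% of all genes, smallest adjusted p of the members 1.0). These shares are those of limma. In DESeq2 2 members had an unadjusted p under 0.05, a count given here without its share over all genes. Within these 40 genes, 25 varied by less than 1.5-fold and 31 by less than 2-fold between the highest and the lowest of the 8 libraries. Among the 32 members with a mean of at least 10 CPM, 3 varied by 2-fold or more, against 3.49% of the 10744 genes at that level. *Plin2* is among these 3, and its mean of 10.8 CPM passed that limit only through 1 library. That library held 52.0 CPM, and the others held 4.34 to 5.80 CPM.

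**Figure D1:**
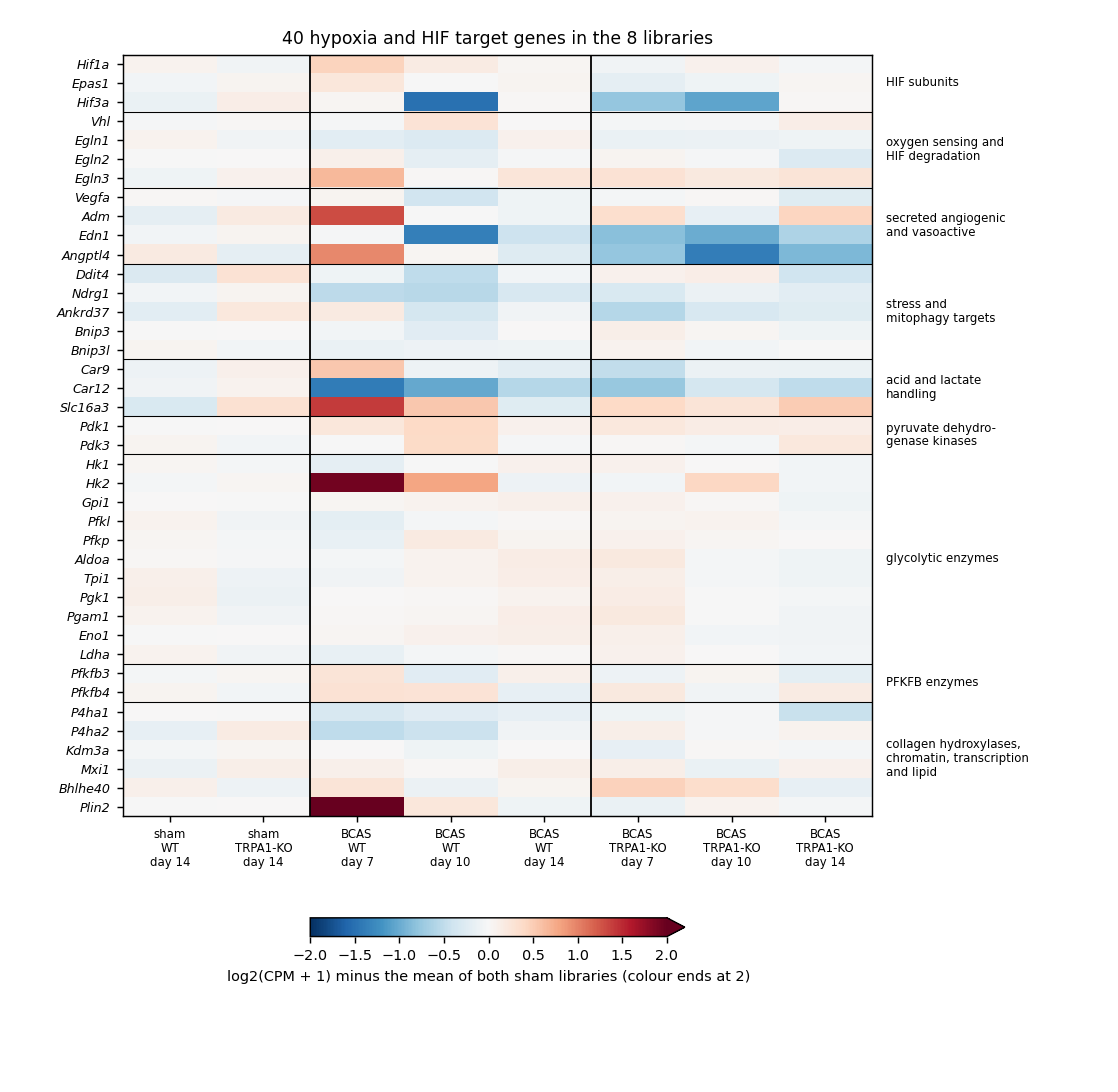
Difference of each of the 40 members (rows, grouped by role) from the mean of both sham libraries, on the log2(CPM + 1) scale, in each of the 8 libraries (columns, 1 library each). Most cells are pale; the darkest red cells are *Plin2* and *Hk2* on day 7 after BCAS with the label WT, and *Car12* is blue in all 6 BCAS columns.

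**Figure D2:**
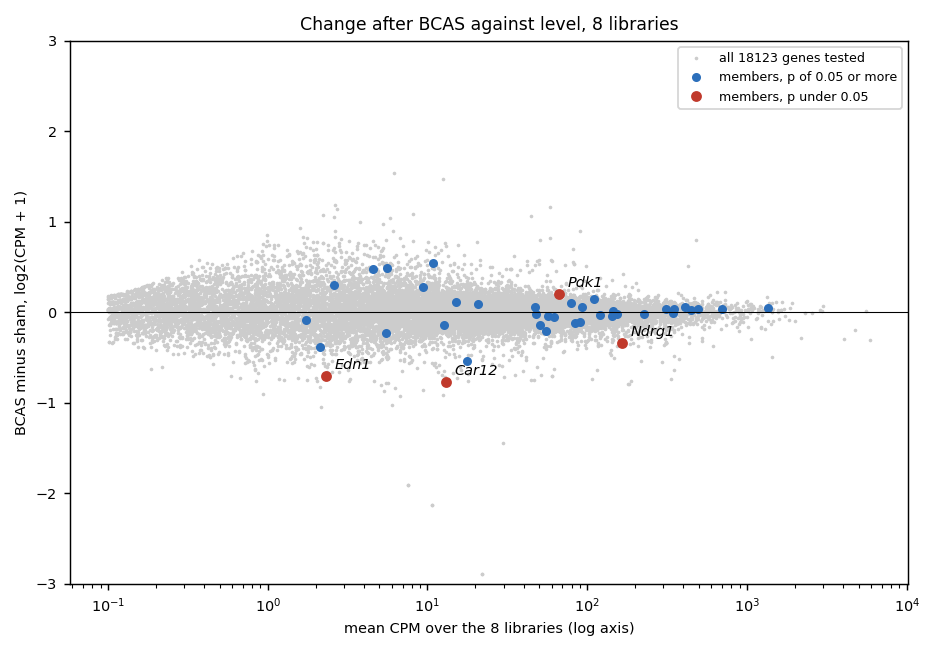
Mean CPM over the 8 libraries (log axis) against BCAS minus sham on the log2(CPM + 1) scale for the 18123 genes tested (grey) and the 40 members (blue, or red where the limma p was under 0.05). The members lie on both sides of 0, between -0.77 (*Car12*) and 0.54 (*Plin2*).

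The transcripts of the oxygen-regulated subunits were examined first. Per kilobase of exon, *Epas1* (HIF-2α, prominent in endothelial cells and astrocytes) had the highest mean level at 26.1 CPM per kb, *Hif1a* (HIF-1α, the broadly expressed subunit) followed at 13.4, and *Hif3a* (HIF-3α, which includes forms that restrain HIF) had 2.64. *Hif1a* held 78.1 and 71.3 CPM in the sham pair (the library labelled WT is given first throughout), 101, 83.6, and 76.7 CPM in the BCAS series labelled WT (days 7, 10, and 14, in that order throughout), and 70.7, 79.2, and 72.5 CPM in the series labelled TRPA1-KO. Only the day 7 library labelled WT lay clearly above the sham values, at 1.36 times their mean, and the groups overlapped. The difference of *Hif1a* between BCAS and sham was 0.10 (SE 0.10, exact permutation p = 0.54), and between the BCAS labels it was 0.22 (SE 0.10, limma adjusted p = 0.98). Without the day 7 library labelled WT, these were 0.044 and 0.11.

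In the same order of libraries, *Epas1* held 140 and 150 CPM in the sham pair, 170, 144, and 150 CPM in the series labelled WT, and 128, 137, and 148 CPM in the series labelled TRPA1-KO. Its BCAS values lay on both sides of the sham values (difference 0.0075, SE 0.083, exact permutation p = 1.0). *Hif3a* held 20.1 and 24.3 CPM in the sham pair, 22.7, 7.18, and 22.4 CPM in the series labelled WT, and 12.5, 10.1, and 22.4 CPM in the series labelled TRPA1-KO. 3 of the 6 BCAS libraries were thus low, both of day 10 and that of day 7 labelled TRPA1-KO, while both libraries of day 14 lay within the sham range. The difference of *Hif3a* was -0.54 (SE 0.38, exact permutation p = 0.36), with a 95% interval of -1.37 to 0.28. Without the day 7 library labelled WT, an alternative chosen after seeing the data, its level was higher on later days by 0.18 per day (SE 0.056, limma adjusted p = 0.91), and with that library by 0.070 per day (SE 0.069, limma adjusted p = 0.96).

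Of the oxygen sensors and the degradation factor, *Egln1* (PHD2, the main prolyl hydroxylase) and *Egln2* (PHD1) had mean levels of 23.4 and 22.0 CPM per kb, *Vhl* (the subunit of the ubiquitin ligase that binds hydroxylated HIF) had 15.8, and *Egln3* (PHD3, itself a HIF target) had 3.55. *Egln1* held 93.7 and 85.3 CPM in the sham pair, 77.2, 74.0, and 94.6 CPM in the series labelled WT, and 81.8, 82.8, and 84.3 CPM in the series labelled TRPA1-KO. *Egln2* held 62.8 and 63.8 CPM, then 68.0, 55.7, and 62.3 CPM, and then 65.7, 62.4, and 52.2 CPM in the same groups. *Vhl* held 45.3 and 46.4 CPM, then 45.1, 55.8, and 46.2 CPM, and then 44.5, 45.3, and 50.3 CPM. For these 3 genes the BCAS and sham values overlapped, and the highest library exceeded the lowest by 1.25- to 1.30-fold.

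*Egln3* was the sensor that varied most, by 1.76-fold. It held 7.43 and 8.54 CPM in the sham pair, 13.1, 8.07, and 9.66 CPM in the series labelled WT, and 9.91, 9.29, and 9.68 CPM in the series labelled TRPA1-KO. 5 of the 6 BCAS libraries lay above both sham libraries and the library of day 10 labelled WT lay between them. The difference between BCAS and sham was 0.27 (exact permutation p = 0.21).

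Of the secreted angiogenic and vasoactive targets, *Vegfa*, the principal growth factor for blood vessels and a classic HIF target, had the highest mean level of its group (21.1 CPM per kb) and was not higher after BCAS. It held 97.2 and 94.1 CPM in the sham pair, 99.4, 73.1, and 90.3 CPM in the series labelled WT, and 93.0, 96.7, and 80.4 CPM in the series labelled TRPA1-KO. Its difference of -0.11 (95% interval -0.35 to 0.13, exact permutation p = 0.43) has an upper bound that corresponds to a small increase.

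*Edn1*, which encodes the vasoconstrictor endothelin-1 made mainly by endothelial cells, had a lower mean after BCAS. It held 3.36 and 3.74 CPM in the sham pair, 3.47, 0.756, and 2.41 CPM in the series labelled WT, and 1.56, 1.28, and 1.98 CPM in the series labelled TRPA1-KO. All 3 libraries labelled TRPA1-KO lay below both sham libraries, and the day 7 library labelled WT lay between the sham values. The mean was 3.55 ± 0.27 CPM after sham (SD, n = 2) and 1.91 ± 0.95 CPM after BCAS (SD, n = 6), a difference of -0.71 (SE 0.30, limma adjusted p = 1.0, exact permutation test p = 0.14, two-sided). These are low counts, between 6 and 43 reads, and the 95% Clopper-Pearson interval of the lowest value was 0.277 to 1.65 CPM. The unadjusted limma p was under 0.05, but 5 of 16 alternatives took it to 0.05 or above, among them DESeq2 and leaving out either sham library. The 6 endothelial markers summed to 226 and 262 CPM after sham and to 228 to 280 CPM after BCAS, and 0 of the 6 had a limma p under 0.05. The part of endothelial cells in the *Edn1* difference was not tested.

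*Angptl4*, a secreted inhibitor of lipoprotein lipase that HIF and fatty acid receptors induce, separated the BCAS groups. It held 2.89 and 2.01 CPM in the sham pair, 5.69, 2.52, and 1.87 CPM in the series labelled WT, and 1.0, 0.320, and 0.832 CPM in the series labelled TRPA1-KO. Each library labelled TRPA1-KO after BCAS lay below each other library. The mean was 3.36 ± 2.05 CPM in the series labelled WT and 0.718 ± 0.355 CPM in that labelled TRPA1-KO (SD, n = 3 each). The difference between the labels was 1.27 (SE 0.31, limma adjusted p = 0.98, exact permutation test p = 0.10, the smallest that 3 against 3 allow), and between the BCAS libraries labelled TRPA1-KO and sham it was -1.02 (SE 0.34, limma adjusted p = 1.0). Those 3 libraries held 9, 3, and 8 reads, so the value of day 10 has a 95% interval of 0.0661 to 0.936 CPM. Without the day 7 library labelled WT, the difference between the labels was 0.91 and its unadjusted limma p was still under 0.05.

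*Adm*, the vasodilator adrenomedullin, held 1.56 and 2.30 CPM in the sham pair, 6.23, 1.89, and 1.76 CPM in the series labelled WT, and 2.67, 1.60, and 2.91 CPM in the series labelled TRPA1-KO. Only the day 7 library labelled WT stood out, at 3.22 times the sham mean.

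All 5 members of the stress and mitophagy group had a lower fitted mean after BCAS, by 0.030 to 0.34, and 1 of them had a limma p under 0.05. That gene was *Ndrg1*, a stress-responsive HIF target that is also abundant in myelinating glia. It held 188 and 202 CPM in the sham pair, 135, 132, and 156 CPM in the series labelled WT, and 158, 179, and 169 CPM in the series labelled TRPA1-KO. All 6 BCAS libraries lay below both sham libraries, and each library labelled WT lay below each labelled TRPA1-KO. The means were 195 ± 9.5 CPM after sham (SD, n = 2), 141 ± 12.9 CPM in the BCAS series labelled WT, and 169 ± 10.6 CPM in that labelled TRPA1-KO (SD, n = 3 each). The difference between BCAS and sham was -0.34 (SE 0.082, limma adjusted p = 1.0), or 1.26-fold lower, and ranked 15th of all genes by p. With day 14 alone it was -0.26, and across 16 alternatives it stayed between -0.39 and -0.26 with a p under 0.05 in each. The exact permutation test gave p = 0.071, where the smallest possible is 0.036. Between the BCAS labels the difference was -0.26 (SE 0.086, limma adjusted p = 0.98).

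The oligodendrocyte marker sum was lower in the same libraries, with the 6 BCAS libraries (12932 to 14620 CPM) below both sham libraries (15827 and 17362 CPM), and its part in the *Ndrg1* difference was not tested. Between the BCAS labels that sum did not separate the libraries, since it lay between 13194 and 14139 CPM in the series labelled WT, within the range of the other series (12932 to 14620 CPM).

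*Bnip3* and *Bnip3l*, which encode mitophagy receptors of the outer mitochondrial membrane and are strong HIF targets, varied little. *Bnip3l* held 153 and 141 CPM in the sham pair, 135, 137, and 139 CPM in the series labelled WT, and 155, 142, and 146 CPM in the series labelled TRPA1-KO. After BCAS, all 3 libraries labelled WT lay below the other 5 libraries, by a small amount (difference between the BCAS labels -0.11, SE 0.068, exact permutation p = 0.10). *Bnip3* lay between 105 and 133 CPM in all 8 libraries. *Ddit4* (REDD1, an inhibitor of mTORC1) lay between 37.2 and 65.3 CPM and *Ankrd37*, a compact HIF-1 target, between 3.90 and 7.38 CPM. In both genes the values after BCAS overlapped the sham values, and reads of *Ankrd37* may be shared with genes that overlap it on the other strand.

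3 members handle acid and lactate, which glycolysis produces. *Car12*, a membrane carbonic anhydrase that regulates pH outside the cell, had the largest decrease among the 40 on the log2(CPM + 1) scale, while in linear CPM the mean of *Edn1* was 1.86-fold lower. *Car12* held 18.1 and 19.9 CPM in the sham pair, 6.58, 8.82, and 12.4 CPM in the series labelled WT, and 10.8, 14.6, and 13.1 CPM in the series labelled TRPA1-KO. All 6 BCAS libraries lay below both sham libraries, and the lowest was that of day 7 labelled WT. The mean was 19.0 ± 1.3 CPM after sham (SD, n = 2) and 11.1 ± 3.0 CPM after BCAS (SD, n = 6), 1.72-fold lower (difference -0.77, SE 0.20, limma adjusted p = 1.0, exact permutation test p = 0.071). The p stayed under 0.05 in each of 16 alternatives, with differences between -0.88 and -0.54. In the BCAS libraries it was higher on later days by 0.075 per day (SE 0.031, limma adjusted p = 0.94, exact permutation p = 0.11), and by 0.052 per day without the day 7 library labelled WT, where the unadjusted p was no longer under 0.05.

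The striatal neuron markers were lower in the same 6 libraries as *Car12*. Their sum was 1014 and 1376 CPM in the sham pair, 525, 752, and 677 CPM in the series labelled WT, and 607, 962, and 902 CPM in the series labelled TRPA1-KO, so that in each label the lowest sum and the lowest *Car12* value were both on day 7. None of the 6 striatal markers was at 0 in any library, and their part in the *Car12* difference was not tested.

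*Car9*, the carbonic anhydrase most tightly tied to HIF-1, was near the limit of what this depth shows, at 1.0 to 3.11 CPM, with its highest value on day 7 after BCAS with the label WT. *Slc16a3* (MCT4, the lactate exporter of glycolytic cells such as astrocytes) held 2.27 and 4.03 CPM in the sham pair, 9.69, 4.91, and 2.41 CPM in the series labelled WT, and 4.34, 3.84, and 4.79 CPM in the series labelled TRPA1-KO. Only the day 7 value was far from the sham values, at 3.08 times their mean.

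**Figure D3:**
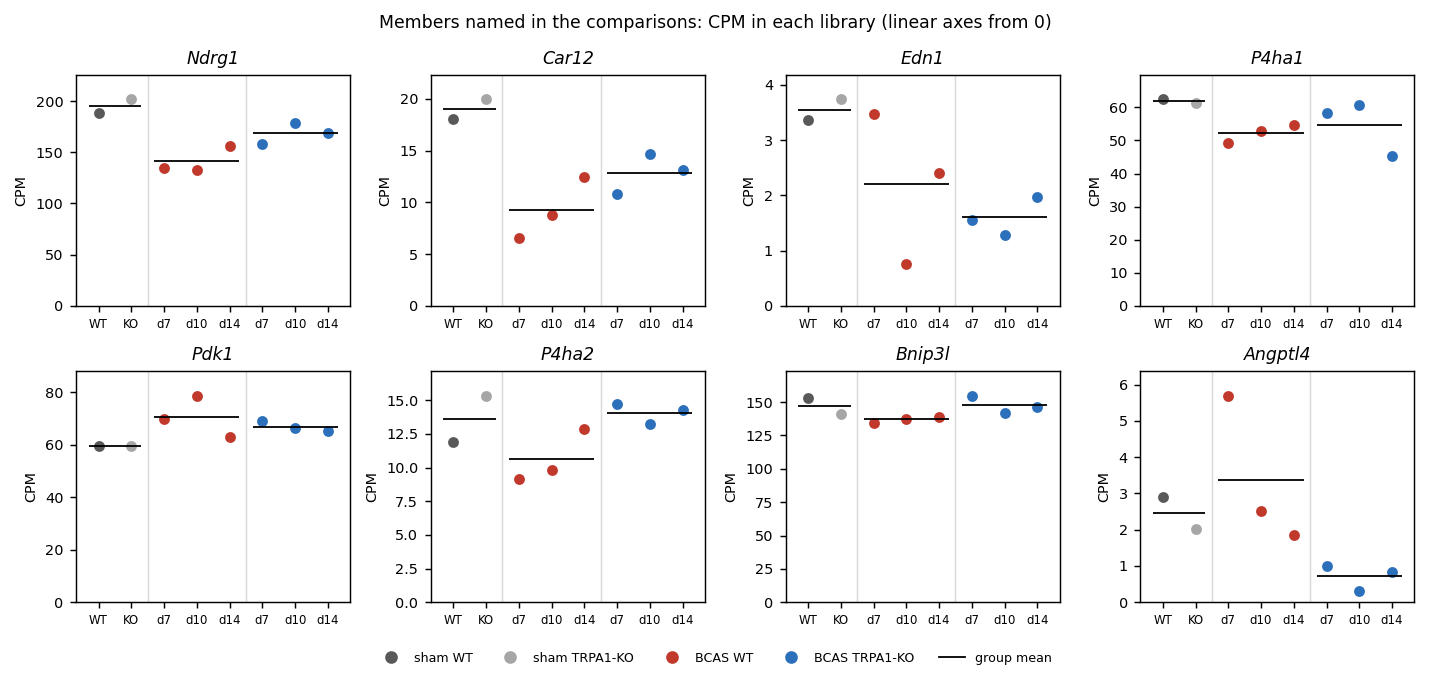
CPM of 8 members in each library, on linear axes that start at 0. Each point is 1 library (sham: the labels WT and KO, for TRPA1-KO; BCAS: d7, d10, and d14 for the postoperative day) and each line is a group mean. *Ndrg1*, *Car12*, and *P4ha1* lie below both sham points in all 6 BCAS libraries, *Pdk1* lies above them, and *Angptl4* is lowest in the 3 BCAS libraries labelled TRPA1-KO.

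The pyruvate dehydrogenase kinases inhibit pyruvate dehydrogenase, which limits the use of pyruvate by mitochondria, and *Pdk1* is an isoform that HIF-1 induces. It was the only member that was higher in all 6 BCAS libraries than in both sham libraries. *Pdk1* held 59.5 and 59.6 CPM in the sham pair, 69.7, 78.8, and 63.0 CPM in the series labelled WT, and 69.1, 66.4, and 65.4 CPM in the series labelled TRPA1-KO. The mean was 59.6 ± 0.078 CPM after sham (SD, n = 2) and 68.7 ± 5.5 CPM after BCAS (SD, n = 6), 1.15-fold higher (difference 0.20, SE 0.085, limma adjusted p = 1.0, exact permutation test p = 0.11). With a single member out of 40, the share was close to that of all genes, of which 2.6% were higher in every BCAS library than in both sham libraries. The p reached 0.05 or above in 7 of 16 alternatives, among them day 14 alone (difference 0.11), either sham library left out, and DESeq2. *Pdk3* lay between 18.7 and 25.8 CPM, and its groups overlapped.

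In the other direction, 3 members (*Ndrg1*, *Car12*, and *P4ha1*) were lower in all 6 BCAS libraries than in both sham libraries, against 3.59% of all genes. *P4ha1* encodes a collagen prolyl hydroxylase that HIF-1 induces. It held 62.4 and 61.2 CPM in the sham pair, 49.1, 52.9, and 54.8 CPM in the series labelled WT, and 58.2, 60.9, and 45.2 CPM in the series labelled TRPA1-KO. The library of day 10 labelled TRPA1-KO was close to the lower sham value, and the difference was -0.21 (SE 0.11, limma adjusted p = 1.0, exact permutation test p = 0.11).

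Of the 11 glycolytic enzymes, 10 (all but *Hk2*) varied by 1.13- to 1.25-fold between the highest and the lowest library. *Aldoa*, the aldolase that splits fructose bisphosphate, had the highest mean level per length of its group (368 CPM per kb). It held 1354 and 1307 CPM in the sham pair, 1301, 1398, and 1478 CPM in the series labelled WT, and 1521, 1296, and 1252 CPM in the series labelled TRPA1-KO, with BCAS values on both sides of sham. *Ldha*, which turns pyruvate into lactate, lay between 206 and 242 CPM in the 8 libraries, and *Pgk1*, an enzyme often used as a readout of HIF-1, between 319 and 382 CPM. For *Ldha* the difference between BCAS and sham was -0.021 (95% interval -0.19 to 0.14, exact permutation p = 0.75), and for *Pgk1* it was 0.03 (95% interval -0.15 to 0.21, exact permutation p = 0.71).

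Summed over these 10 enzymes, the level was 4843 and 4580 CPM in the sham pair, 4585, 4905, and 5078 CPM in the series labelled WT, and 5181, 4662, and 4488 CPM in the series labelled TRPA1-KO. The BCAS values lay on both sides of the sham values. The sum of the 8 neuron markers went with it, at 9390 and 8563 CPM in the sham pair, 7931, 8926, and 9845 CPM in the series labelled WT, and 9796, 9037, and 8509 CPM in the series labelled TRPA1-KO, so that within each label both sums ran in the same order of days. The part of neurons in the glycolytic sum was not tested, and none of the 8 neuron markers was at 0 in any library.

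**Figure D4:**
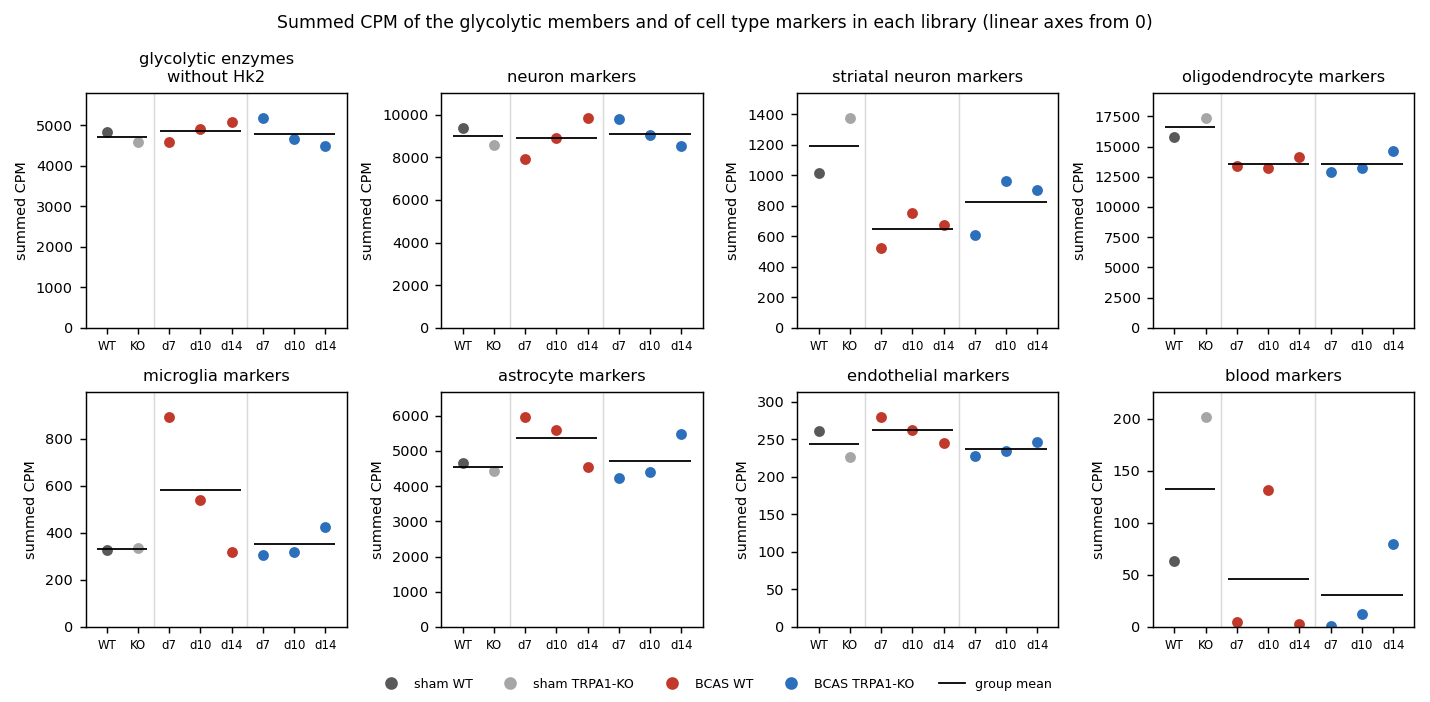
Summed CPM of the 10 glycolytic enzymes other than *Hk2* and of 7 marker lists in each library (1 point per library, lines are group means, linear axes from 0). The glycolytic sum stays between 4488 and 5181 CPM, while the striatal neuron and oligodendrocyte sums are lower in all 6 BCAS libraries than in both sham libraries and the microglia sum peaks at 893 CPM on day 7 with the label WT.

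*Hk2*, the inducible hexokinase, held 3.36 and 3.64 CPM in the sham pair, 16.1, 6.81, and 3.18 CPM in the series labelled WT, and 3.34, 5.02, and 3.33 CPM in the series labelled TRPA1-KO. With the label WT it was 4.59 times the sham mean on day 7 and at the sham level on day 14. Over the 6 BCAS libraries it was lower on later days by 0.15 per day on the log2 scale (SE 0.060, limma adjusted p = 0.94, exact permutation p = 0.14), and without the day 7 library labelled WT the slope was -0.060 with an unadjusted p no longer under 0.05. The constitutive hexokinase *Hk1* lay between 303 and 367 CPM.

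The enzymes that set fructose 2,6-bisphosphate, an activator of glycolysis, were read next. *Pfkfb3* held 46.8 and 50 CPM in the sham pair, 57.7, 41.1, and 52.1 CPM in the series labelled WT, and 45.0, 50.5, and 41.9 CPM in the series labelled TRPA1-KO, and *Pfkfb4* lay between 12.4 and 17.3 CPM. In both, the BCAS and sham values overlapped.

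Among the remaining targets, *P4ha2*, the second collagen prolyl hydroxylase, separated the BCAS labels. It held 11.9 and 15.3 CPM in the sham pair, 9.16, 9.83, and 12.8 CPM in the series labelled WT, and 14.7, 13.2, and 14.3 CPM in the series labelled TRPA1-KO. Each library labelled WT lay below each labelled TRPA1-KO after BCAS, while the sham values spanned most of that range. The difference between the labels was -0.39 (SE 0.16, limma adjusted p = 0.98), and its unadjusted p was 0.05 or above in 6 of 14 alternatives.

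*Bhlhe40* (DEC1, a transcriptional repressor of the clock that HIF induces) had the highest mean level per length of this group. It held 108 and 94.5 CPM in the sham pair, 122, 93.0, and 105 CPM in the series labelled WT, and 139, 129, and 90.6 CPM in the series labelled TRPA1-KO. It was lower on later days by 0.058 per day (SE 0.020, limma adjusted p = 0.94, exact permutation p = 0.19), and by 0.028 per day without the day 14 library labelled TRPA1-KO, where the unadjusted p was no longer under 0.05. The histone demethylase *Kdm3a* (51.1 to 59.5 CPM) and the MYC antagonist *Mxi1* (82.6 to 98.2 CPM) varied by less than 1.2-fold.

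*Plin2*, which coats lipid droplets, gave the largest single value against sham in the whole group. It held 4.77 and 4.89 CPM in the sham pair, 52.0, 5.80, and 4.5 CPM in the series labelled WT, and 4.34, 5.13, and 4.68 CPM in the series labelled TRPA1-KO. The day 7 library labelled WT was 10.8 times the sham mean, and the other 5 BCAS libraries lay within 4.34 to 5.80 CPM. With 1 library per day and label, this value has no replicate.

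That library also held the highest value of *Hk2*, *Slc16a3*, *Adm*, *Angptl4*, *Egln3*, *Car9*, and *Hif1a*, in all of 13 of the 40 members, where 21.9% of all genes tested had their highest value there. The members high in that library did not include the abundant glycolytic enzymes, since *Ldha* (206 CPM) and *Pfkp* (276 CPM) had their lowest value of the 8 libraries there. The median over the 40 members of the difference from the sham mean was 0.027 in that library, and it lay between -0.057 and 0.063 in the other BCAS libraries. The same library held the highest microglia sum (893 CPM against 327 and 334 CPM after sham, none of the 7 markers at 0) and the highest astrocyte sum (5968 CPM against 4656 and 4439 CPM), and their part in these values was not tested.

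**Figure D5:**
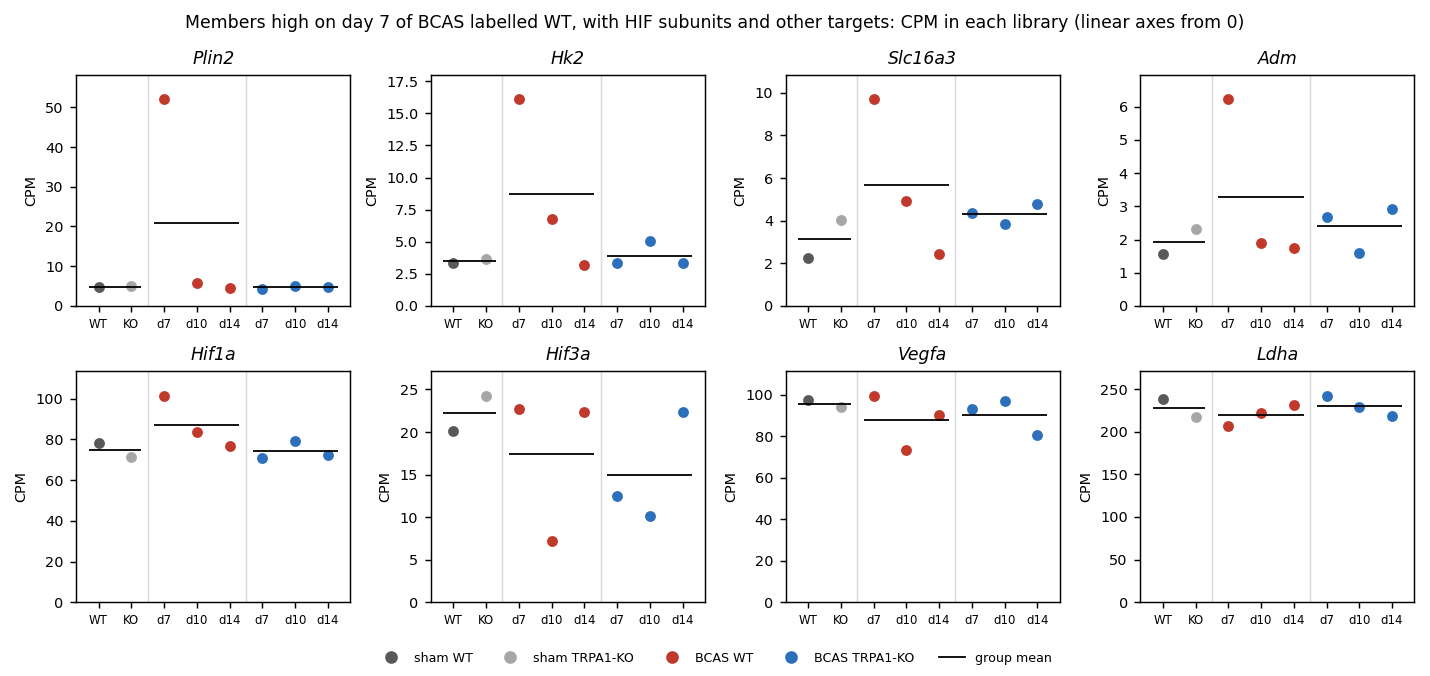
CPM of 8 members in each library, on linear axes that start at 0 (1 point per library, d7, d10, and d14 are postoperative days, lines are group means). *Plin2*, *Hk2*, *Slc16a3*, and *Adm* have 1 high point, on day 7 after BCAS with the label WT (52.0, 16.1, 9.69, and 6.23 CPM), whereas *Vegfa* lies between 73.1 and 99.4 CPM and *Ldha* between 206 and 242 CPM in the 8 libraries.

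Each of the BCAS series was set against the same 2 sham libraries, so both comparisons share their controls. With the label WT, 23 of 40 members were higher and 17 lower (median 0.042), and 3 had a limma p under 0.05 (*Pdk1* higher, *Ndrg1* and *Car12* lower), against 5.45% of all genes. The WT median was -0.0052 without the day 7 library. With the label TRPA1-KO, 21 were higher and 19 lower (median 0.0082), and 4 had a limma p under 0.05, all lower (*Edn1*, *Angptl4*, *Ndrg1*, and *Car12*), against 2.74% of all genes. The difference of *Ndrg1* was -0.47 (SE 0.091) with the label WT and -0.21 (SE 0.091) with the label TRPA1-KO, and that of *Car12* was -1.0 (SE 0.22) and -0.54 (SE 0.22). No member had an adjusted p under 0.05 in limma in either comparison, where 0% and 0.00552% of all genes did. In DESeq2, 2 members (*Ndrg1* and *Car12*) had an adjusted p under 0.05 with the label WT, where 24 of all genes did.

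In the direct comparison, the series labelled WT was above that labelled TRPA1-KO in 26 members and below in 14 (median 0.047, all genes 0.0010). With 1 library left out, that median lay between 0.016 (without the day 7 library labelled WT) and 0.082 (without that labelled TRPA1-KO). 3 members had a limma p under 0.05 (*Angptl4* higher with the label WT, *Ndrg1* and *P4ha2* lower), against 4.2% of all genes. No member had an adjusted p under 0.05, against 0.0166% of all genes. 1 member was higher in each library labelled WT than in each labelled TRPA1-KO, where 4.48% of all genes were, and 3 were lower (*Ndrg1*, *Bnip3l*, and *P4ha2*), where 4.73% were.

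Across postoperative days, 15 members had a higher and 25 a lower level on later days after BCAS, with a median of -0.0078 per day beside -0.00092 over all genes. 3 members had a limma p under 0.05 (*Car12* higher, *Hk2* and *Bhlhe40* lower on later days), against 4.93% of all genes, and none had an adjusted p under 0.05 in limma (0% of all genes). With all genes kept and no limit on the mean, 0 members had such an unadjusted p, a count given here without its share over all genes.

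A second list of 59 genes of the HIF pathway that are not members, of which 58 were tested, was read the same way. After BCAS, 33 were higher and 25 lower (median 0.030), 2 had a limma p under 0.05, both higher, against 3.67% of all genes, and none had an adjusted p under 0.05. *Nfil3*, a transcription factor induced by stress, held 4.54 and 7.19 CPM in the sham pair, 9.07, 8.57, and 8.34 CPM in the series labelled WT, and 10.5, 8.33, and 6.76 CPM in the series labelled TRPA1-KO (difference 0.50, SE 0.20, limma adjusted p = 1.0, exact permutation p = 0.071). *Pdk2*, the pyruvate dehydrogenase kinase most widely expressed, held 78.3 and 84.7 CPM in the sham pair, 90.7, 92.3, and 94.7 CPM in the series labelled WT, and 92.6, 83.8, and 91.3 CPM in the series labelled TRPA1-KO (difference 0.16, SE 0.069, limma adjusted p = 1.0, exact permutation p = 0.071). In both, 5 of the 6 BCAS libraries lay above both sham libraries. With the label WT against sham, 27 of the 58 were higher and 31 lower, and 5 had a limma p under 0.05. Of those 5, 4 were higher and 1 lower, against 5.45% of all genes for both directions. With the label TRPA1-KO against sham, 1 of the 58 had such a p, lower, against 2.74% of all genes. *Slc2a1* (GLUT1, the glucose transporter of the blood-brain barrier and a classic HIF target) was not higher, at 151 and 133 CPM in the sham pair, 137, 114, and 143 CPM in the series labelled WT, and 111, 119, and 130 CPM in the series labelled TRPA1-KO (label TRPA1-KO against sham -0.24, SE 0.11, limma adjusted p = 1.0).

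Between the BCAS labels, 3 of the 58 had a limma p under 0.05, against 4.2% of all genes. *Tfrc*, the transferrin receptor, was higher with the label WT in every BCAS library (142, 159, and 161 CPM against 130, 137, and 136 CPM, exact permutation p = 0.10) and also in the sham pair (150 and 127 CPM), and the groups of *Cdkn1a* (0.45) and *Fosl2* (-0.62) overlapped. By day, 42 of the 58 were lower and 16 higher on later days (median -0.011 per day), and 4 had a limma p under 0.05, all lower, against 4.93% of all genes. The histone demethylase *Kdm6b* held 44.4, 42.8, and 33.4 CPM on days 7, 10, and 14 in the series labelled WT and 57.8, 50.3, and 36.8 CPM in that labelled TRPA1-KO (-0.075 per day, limma adjusted p = 0.94, exact permutation test p = 0.028, the smallest possible). *Hilpda*, a HIF target on lipid droplets, held 4.27, 2.65, and 1.98 CPM and then 3.56, 3.63, and 2.29 CPM (-0.093 per day), with 3.36 and 3.07 CPM after sham. The others were *Stc2*, a secreted stress factor (-0.091 per day), and *Kdr*, the receptor of VEGF (-0.072 per day).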

How the data were processed

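The 8 libraries were made from polyadenylated RNA. The authors mapped the reads to GRCm38 with HISAT, counted reads per gene with subread, and normalized them with edgeR. The strand setting and the gene annotation are not given in the sources used here. The deposited signal is CPM on a linear scale, set against the effective library size of edgeR. All values (100%) were whole multiples of 1 read within 0.02 reads, so reads were recovered, 7896071 to 12952093 per library, from which a detection floor (3 reads) and 95% intervals (Clopper-Pearson) were taken. Both cover counting error only.

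Values were tested as log2(CPM + 1), a scale that understates changes of low genes, in limma (version 3.58.1, run in R 4.3.3, using its trend option, two-sided, Benjamini-Hochberg adjustment over 18123 genes). A mean of 0.1 CPM over the libraries was the limit for testing. Comparisons with sham used all 8 libraries, and those between BCAS groups and of days used the 6 BCAS libraries. Exact permutation tests were made for single genes. The recovered reads were also tested with edgeR version 4.0.16 and DESeq2 version 1.42.0. The main design of each comparison was run on simulated data in limma, edgeR, and DESeq2, with an outcome not given here. The alternatives were not run on simulated data. Labels do not say whether a library came from 1 mouse. The paper's general statement is that a data point stands for a sample from 1 mouse, and its RNA sequencing figure gives n = 1. The p-values measure the spread between libraries.

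Members and lists were chosen with earlier results of these data known. Every library's value is given for HIF subunits, oxygen sensors, members with a limma p under 0.05, members whose groups did not overlap (all BCAS against sham, or the BCAS labels), and the highest member of each role. Other pathway genes are named only where their p was under 0.05 in some comparison. *Jmjd6*, *Pdgfb*, and *Gys1* also had such a p and are not described. *Plin2*, *Slc16a3*, and *Adm* were added after their values were seen, as was the fit without the day 7 library labelled WT. Other alternatives were a pseudocount of 0.1, other limits on the mean, equalized library medians, genotype label or day as a term, day 14 alone, 1 sham library, and each library left out. Exon lengths come from GENCODE M21. Reads of 7 members may be shared with an overlapping gene.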

Additional observations from a re-analysis of the deposited data

Results flagged for a closer look

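Among the 6 BCAS libraries, *Plin2* had 1 value far from the others: the gap between the day 7 library labelled WT and the next library was 0.895 of the whole range on the log2(CPM + 1) scale, above Dixon's 95% critical value for 6 samples. It was the only one of the 40 members past that limit, which chance passes for about 1 in 20 groups. The value was 52.0 CPM, against 4.34 to 5.80 CPM in the other 7 libraries.

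For 3 members, the level after BCAS differed between the labels at an unadjusted limma p under 0.05. The difference of the BCAS groups (label WT minus label TRPA1-KO) was 1.27 for *Angptl4*, -0.26 for *Ndrg1*, and -0.39 for *P4ha2*, each with a limma adjusted p of 0.98. At the unadjusted threshold 4.2% of all genes were called. This direct difference leaves out the sham library of each label. The sham pair differed in the same direction, with the label WT first: *Angptl4* 2.89 and 2.01 CPM, *Ndrg1* 188 and 202 CPM, and *P4ha2* 11.9 and 15.3 CPM. Whether the change from the sham library of the same label differed between the labels was not tested.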

How the results depend on the processing

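With 2 sham libraries and 3 BCAS libraries per label, each from 1 day, single libraries moved the counts. Where the next paragraph gives no count over all genes for a setting, the members called there cannot be set against a share of all genes. Members with a limma p under 0.05 after BCAS against sham (4) numbered 2 in DESeq2 and 2 to 7 with 1 library left out. With the label WT against sham (3) they numbered 5 in edgeR and 2 to 9 with 1 library left out, and with the label TRPA1-KO against sham (4) 0 with the sham library of that label alone and 0 to 5 with 1 left out. Between the BCAS labels (3) they numbered 5 in edgeR, 5 with all 8 libraries in 1 fit, and 1 to 7 with 1 left out, and by day (3) 0 with no filter and 1 to 7 with 1 left out. Members with an adjusted p under 0.05 (0 in every comparison) numbered 2 with the label WT in DESeq2, and 0 to 2 with 1 library left out, 2 without the day 14 BCAS library labelled WT.

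Over all genes, those with a p under 0.05 numbered 190 to 1193 (666), 357 to 2013 (988), 191 to 735 (496), 325 to 1846 (761), and 610 to 2040 (893) with 1 library left out, in the order BCAS, label WT, label TRPA1-KO, between labels, and day. The highest counts came without the day 14 BCAS library labelled WT (BCAS, label WT, between labels) or labelled TRPA1-KO (label TRPA1-KO, day). The label WT gave 359 with its own sham library, the label TRPA1-KO 254 in DESeq2, and the day 464 in DESeq2. Genes with an adjusted p under 0.05 numbered 9 in DESeq2 and 0 to 1 with 1 left out (BCAS, 0), 24 in DESeq2 and 0 to 45 (label WT, 0), 0 with no filter, with equalized medians, and with its own sham library, 4 in DESeq2, and 0 to 1 (label TRPA1-KO, 1), 1 with no filter, 17 in DESeq2, 0 with all 8 libraries, and 1 to 29 (between labels, 3), and 6 in edgeR, 5 in DESeq2, and 0 to 33 (day, 0). The median of the members was -0.0052 to 0.042 with the label WT with 1 library left out, and by day it was -0.0015 per day with equalized medians and -0.015 to -0.0010 with 1 left out.

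The deviations of same-day libraries from their group means had correlations of -0.10, 0.0051, and -0.26 over 10744 genes, none of them over 0.1. With the day as a replicate block, 4 members, 632 genes with a p under 0.05, and 1 gene with an adjusted p under 0.05 were called between the labels.

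Of 488 values of named members under alternatives, 409 kept their direction and their side of 0.05, 57 lost a p under 0.05, 16 gained one, and 6 changed sign. The 488 include results with a main p of 0.05 or above, such as those of *Plin2*, *Slc16a3*, and *Adm*, which could not lose one. With day 14 alone, *Plin2* was -0.061 and *Hk2* -0.081 after BCAS against sham. Without the day 7 BCAS library labelled WT, *Adm* was -0.044 and *Angptl4* -0.11 with the label WT against sham, and *Slc16a3* was -0.24 and *Adm* -0.24 between the labels, whereas the highest values with 1 library left out were 0.65, 0.50, 0.58, and 0.45 in the same order. The cause of the other shifts was not tested. Members below 10 CPM (8 of 40) are limited most by depth.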
